A study of Magallana hongkongensis with 2 samples.

Results

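Histones and the proteins that modify, read and remodel chromatin were followed in gill RNA of Hong Kong oysters (Crassostrea hongkongensis, now also Magallana hongkongensis). They were chosen by their descriptions: a unigene, which is an assembled transcript, belonged to the set when the text before the species name held "histone", "chromodomain", "bromodomain", "SWI/SNF", "PR domain zinc finger" or "polycomb". This gave 200 of the 21226 unigenes listed in either library, of which 198 had reads in the library labelled heat shock and 195 in the library labelled control. They fall into 17 histones, 99 writers of histone marks, 25 erasers, 22 remodellers, and 27 readers and polycomb proteins. The remaining 10 are other proteins that bind histones or act on histone genes, and a histone H2A deubiquitinase (MYSM1), which was not counted as an eraser. The writers include 11 PR domain zinc finger proteins, a family of which many members act as transcription factors. The name of a unigene is that of its best protein match, which came from the Pacific oyster (Crassostrea gigas) for 168 of the 200, and several unigenes may be pieces of 1 gene.

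The study compared oysters after a heat shock with oysters kept at ambient temperature. Wild adult oysters, diploid and of undetermined sex, were acclimated for 2 weeks. The library labelled heat shock was made from gill of 10 pooled oysters that spent 1 h in seawater at 37 °C and were then put back at 23 °C, and the library labelled control from oysters that stayed at 23 °C throughout. The labels give neither the time between the return and sampling nor the number of oysters in the control library. Each group has 1 library of polyadenylated RNA, so there is no replicate check, no p-value is given, and every interval covers counting error only; a difference is one between these libraries and not between the conditions.

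DNA in the nucleus is wound around histones. Writers attach methyl or acetyl groups to histones, erasers take them off, readers bind them through domains such as the bromodomain, and remodellers use ATP to move or exchange histones. Polycomb proteins form complexes that keep genes silent. In animals, most histones made during DNA replication come from transcripts that end in a stem-loop and lack the poly(A) tail, whereas replacement histones come from polyadenylated transcripts.

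Uniquely mapped reads on the 21026 unigenes outside the set came to 4135346 for labelled heat shock and 3892145 for labelled control, and those on the set are given below. Inducible heat shock proteins ran against the labels: 7 unigenes described as heat shock protein 70 B2, heat shock protein 90 or heat shock protein beta-1 held 6082 reads in the library labelled heat shock and 104257 in the library labelled control, 18.2-fold lower in the library labelled heat shock. The libraries are therefore called by their labels. Whether labels or files were exchanged was not tested; if they were, every ratio given here would turn into its inverse. All 217 unigenes caught by words for chaperones made up 1.04% of the library labelled heat shock and 8.22% of the library labelled control, so the remaining transcripts share unequal parts of the totals. Over the 17364 tested unigenes, the log2 ratio of labelled heat shock to labelled control had a median of 0.17 when scaled to library totals and 0.0065 when scaled by TMM factors (edgeR's scaling, which assumes that most genes do not differ), and ratios below are to be read against it. TMM factors shift every log2 ratio by -0.16, so a ratio just above 1 with library totals lies below 1 with TMM factors. In bulk tissue, fewer cells of a type and less RNA per cell cannot be told apart. As defining markers of the labelled tissue, 6 unigenes of tektin, a protein of ciliary microtubules, held 11185 and 8803 reads in the libraries labelled heat shock and control. Whole marker lists had summed ratios as large as many below. Cilia unigenes held 64296 and 49917 reads, for a ratio of 1.21 (1.20 to 1.23), with 49 of 93 tested intervals above 1 and 2 below. Gonad words held 18592 and 14906 reads, for a ratio of 1.17 (1.15 to 1.20), with 26 of 85 intervals above 1 and 5 below. These words also caught flagellar genes, such as sperm flagellar protein 2 (Unigene0031898, 1275 and 903 reads). The list therefore does not mark gonad apart from cilia. Among its unigenes vitellogenin, a yolk protein, had 170 and 85 reads and vasa, of germ cells, 1007 and 972. Muscle words held 7216 and 5657 reads, for a ratio of 1.20 (1.16 to 1.24), with 9 of 21 intervals above 1 and 0 below. Words for food algae held 232 and 326 reads, for a ratio of 0.669 (0.563 to 0.795), with 0 of 4 above 1 and 2 below. The part of other cells in the results was not tested.

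Testing took a minimum of 20 reads summed over the libraries, and a unigene was called when its ratio was at least 2 in either direction with an exact 95% interval that excluded 1. Of the 200 chromatin unigenes, 167 passed this minimum, and 9 of these were called, 5.39%, against 7.22% of all tested unigenes. The higher calls, in the direction of labelled heat shock, numbered 5 (2.99%, against 3.97% of all), and the lower calls 4 (2.40%, against 3.25%). With TMM factors 3 were higher and 8 lower, 1.80% and 4.79%, against 2.34% and 4.37% of all. These shares are close to those of the transcriptome. The shares of all tested unigenes are also the background for the classes below. A small class with 0 calls is not set apart from that background. Without a minimum ratio, the interval lay above 1 for 41 chromatin unigenes (24.6%, against 23.0% of all) and below 1 for 12 (7.19%, against 8.91%). With TMM factors this balance turned over, with 11 above 1 (6.59%, against 12.3% of all) and 29 below 1 (17.4%, against 14.9%). Their median log2 ratio was 0.20, and their quartiles were -0.04 and 0.41, against -0.11 and 0.43 for all unigenes. All chromatin unigenes together held 37869 reads in the library labelled heat shock and 33204 in the library labelled control, or 0.907% and 0.846% of the reads, for a ratio of 1.07 (95% interval 1.06 to 1.09). Summed over unigenes with the same description, of which there were 102, 0 descriptions passed the call rule in either direction.

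**Figure D1:**
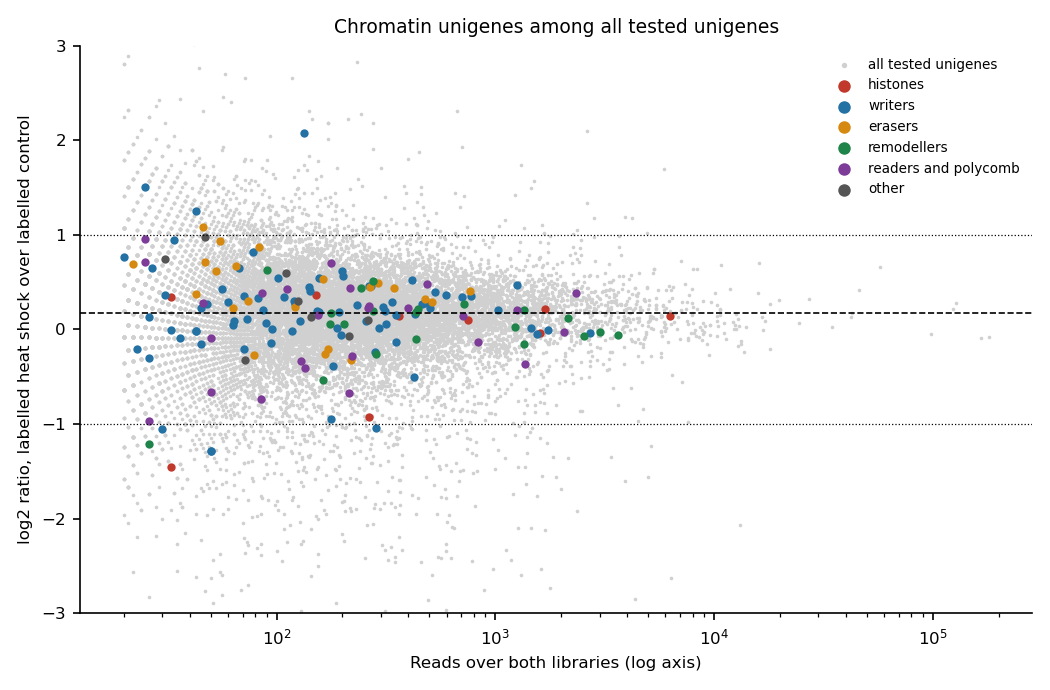
Log2 ratio (labelled heat shock over labelled control, library totals) of each tested unigene against its reads over both libraries, on a log axis; grey points are all 17364 tested unigenes, coloured points the 167 chromatin unigenes by group. The dashed line is the median of all unigenes at 0.17, the dotted lines mark 2-fold, and 60 grey unigenes beyond 3 on either side are not drawn. Chromatin unigenes with the most reads lie between the dotted lines, on both sides of the dashed line. Among them are Unigene0030886 at -0.36 and Unigene0008253 at 0.47.

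Histone transcripts ranged from among the most abundant of all unigenes to single reads. The most abundant chromatin unigene was described as a histone H3-like centromeric protein CSE4-like (Unigene0022444, 1022 bases), a name that rests on a fish protein and stands in yeast for the H3 variant of centromeres. It had 3379 reads in the library labelled heat shock and 2890 in the library labelled control, or 792 and 720 RPKM (reads scaled by length and library size, the authors' deposited measure of level), and ranked 99th and 116th among all unigenes. Its ratio was 1.10 (1.05 to 1.16), which is less than the shift of the median unigene. It alone held 56.7% and 55.2% of the histone reads of the libraries labelled heat shock and control.

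Histone H2A isoform 2, a core histone (Unigene0024186), had 933 reads in the library labelled heat shock and 755 in the library labelled control, or 260 and 224 RPKM, a ratio of 1.16 (1.05 to 1.28). A linker histone, which binds DNA between nucleosomes, was described as Histone H1-delta (Unigene0022867) and had 815 and 788 reads, for a ratio of 0.973 (0.881 to 1.07). Histone H5 (Unigene0023228), a linker histone named after that of bird red cells, had 399 and 351 reads, for a ratio of 1.07 (0.924 to 1.24). These abundant histones differed little between the libraries with library totals. With TMM factors the interval of this H1-delta unigene (Unigene0022867) lay below 1, at 0.868 (0.786 to 0.958). Over the 9 tested histones, 3 intervals then lay below 1, or 33.3%, against 14.9% of all unigenes, and 0 above. A further Histone H2A unigene (Unigene0019341) had 196 and 167 reads, for a ratio of 1.10 (0.893 to 1.37). The variant macro-H2A, whose large extra domain marks silent chromatin in vertebrates, was also detected: its unigene with more reads (Unigene0006182) had 88 reads in the library labelled heat shock and 64 in the library labelled control, a ratio of 1.29 (0.927 to 1.81).

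Both histone unigenes whose interval lay below 1 were second copies of a description. The other Histone H1-delta unigene (Unigene0021858) had 95 reads in the library labelled heat shock and 170 in the library labelled control, 1.90-fold lower (1.47 to 2.47), just under the 2-fold rule and past it with TMM factors. The second CSE4-like unigene (Unigene0028173, 582 bases) had 9 reads in the library labelled heat shock and 24 in the library labelled control, 2.84-fold lower (1.27 to 6.93), and was the 1 histone called. In both pairs the more abundant unigene had a ratio near 1 with library totals.

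Unigenes named after core histones other than H2A carried almost no reads, apart from the abundant CSE4-like unigene (Unigene0022444). Its description does not settle which H3 it encodes, so a low level of ordinary H3 is not shown. A histone H3-like centromeric protein A-like unigene (Unigene0025082) had 10 and 4 reads in the libraries labelled heat shock and control. Histone H2B.3 (Unigene0033344) had 3 reads in each library. Histone H3.2-like (Unigene0020584) had 1 read in the library labelled heat shock and was not listed in the library labelled control, histone H4-like (Unigene0029681) had 2 reads there and was not listed in the library labelled control, and Histone H3.3 (Unigene0024808), a replacement variant, had 6 and 3 reads. Histone H1oo, a linker histone of oocytes in mammals (Unigene0024118), had 1 read in the library labelled heat shock. With 0 reads, a level of up to 3 reads is allowed, or 0.764 CPM (counts scaled to library size) in the library labelled control, so these levels could not be told apart between libraries at this depth. In all, 8 of the 17 histone unigenes stayed under the minimum of 20 reads. Whether the selection of polyadenylated RNA bears on their low counts was not tested.

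**Figure D2:**
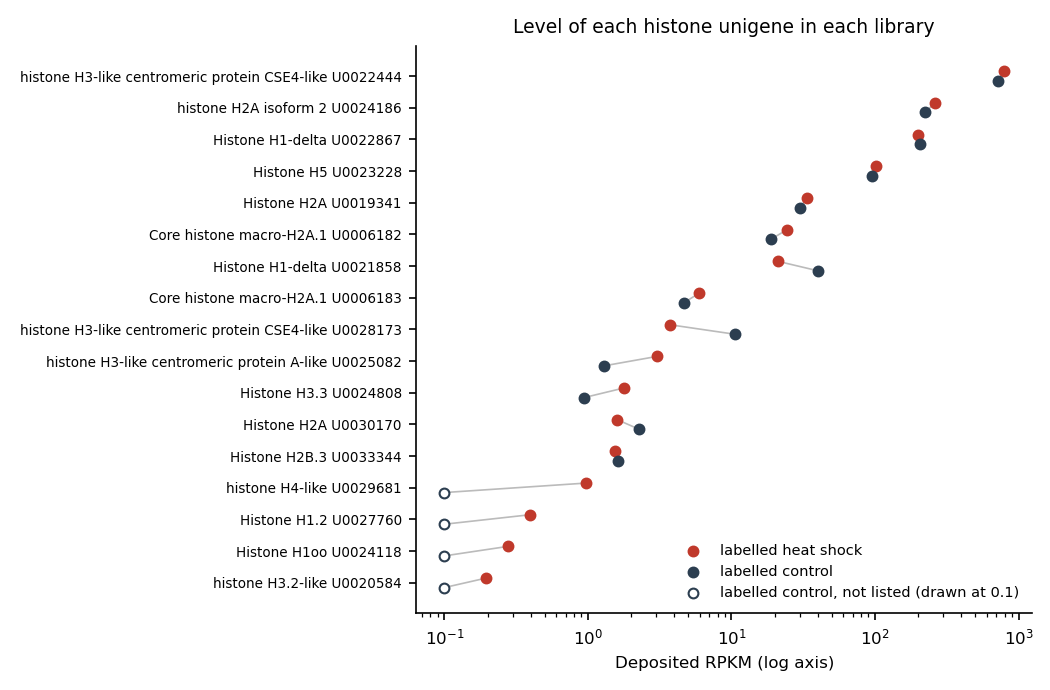
Deposited RPKM (log axis) of the 17 histone unigenes in the library labelled heat shock (red) and the library labelled control (dark); open points were not listed in the library labelled control and are drawn at 0.1. Levels run from 792 RPKM to under 1 RPKM, and the largest gaps among unigenes of 20 or more reads are the second CSE4-like and the second H1-delta unigenes.

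Among the writers, histone methyltransferases were the most numerous class, and most of them differed little between the libraries. Of 63 tested unigenes 1 was called higher and 0 lower, and the median log2 ratio of 0.21 was near the 0.17 of all unigenes. The interval of 11, or 17.5%, lay above 1, against 23.0% of all unigenes. The interval of 0 lay below 1, against 8.91% of all unigenes, and with TMM factors 2 lay above and 3 below. Summed over the class, reads were 9372 in the library labelled heat shock and 7914 in the library labelled control, a ratio of 1.11 (1.08 to 1.15).

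SETD2, which trimethylates histone H3 in transcribed genes, had the most reads of the writers (Unigene0013483, 14271 bases). It had 1375 reads in the library labelled heat shock and 1326 in the library labelled control, a ratio of 0.975 (0.904 to 1.05), or 23.1 and 23.7 RPKM. By level per length the highest was MLL5, a SET-domain protein (Unigene0007995), with 55.6 RPKM in the library labelled heat shock and 54.9 in the library labelled control and a ratio of 1.01 (0.912 to 1.12). The methyltransferase specific for lysine 79 of histone H3, called DOT1 in yeast, was likewise level in its main unigene (Unigene0003619), with 785 and 764 reads and a ratio of 0.966 (0.874 to 1.07). The ratios of these 3 lay below that of the median unigene. Other MLL5 unigenes with high levels had ratios of 1.17 (Unigene0007996, 278 and 223 reads) and 0.960 (Unigene0026279, 100 and 98 reads).

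MLL3 and MLL4, large methyltransferases that act on histone H3 at enhancers and promoters, had larger summed ratios than the unigenes named MLL5. MLL3 was split over 16 unigenes, 14 of them tested, with ratios from 0.901 to 1.48; 13 of the 14 ratios were above 1, against 66.1% of all tested unigenes, and 3 intervals excluded 1. Pieces of 1 transcript would not be independent measurements. Their sum gave 1680 reads in the library labelled heat shock and 1319 in the library labelled control, a ratio of 1.20 (1.11 to 1.29). MLL4 summed to 456 and 326 reads, for a ratio of 1.32 (1.14 to 1.52). MLL5 summed to 1130 and 1020 reads over 3 unigenes, a ratio of 1.04 (0.957 to 1.14). The largest MLL3 ratio was that of Unigene0023164, with 123 and 78 reads, 1.48 (1.11 to 2.00).

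The methyltransferase named H3 lysine-9 specific 5, a relative of mammalian GLP (Unigene0013590), had 403 reads in the library labelled heat shock and 298 in the library labelled control, a ratio of 1.27 (1.09 to 1.48). SETDB1 summed to 146 and 128 reads, for a ratio of 1.07 (0.840 to 1.37), and SUV39H2 (Unigene0014290) had 34 and 30 reads, for a ratio of 1.07 (0.633 to 1.80), too few to resolve a small difference. E(z), the catalytic subunit of polycomb repressive complex PRC2, held the 1 call of the class: its short unigene (Unigene0008760, 544 bases) had 31 reads in the library labelled heat shock and 12 in the library labelled control, 2.43-fold higher (1.21 to 5.20). Its main unigene (Unigene0008759, 2104 bases) had 68 and 60 reads, for a ratio of 1.07 (0.742 to 1.53), and all 3 E(z) unigenes summed to a ratio of 1.24 (0.932 to 1.65).

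PRDM9, a zinc finger methyltransferase that sets recombination sites in mammalian germ cells, was matched by 12 unigenes, 7 of them tested. Of these 7, 0 were called. The largest ratio among those with at least 100 reads was that of Unigene0017844, with 124 reads in the library labelled heat shock and 76 in the library labelled control, a ratio of 1.53 (1.14 to 2.07). Its longest unigene (Unigene0014361, 3477 bases) had 173 and 178 reads, for a ratio of 0.914 (0.737 to 1.13). The 12 unigenes ranged over both directions and summed to a ratio of 1.13 (0.989 to 1.30).

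The PR domain zinc finger proteins, a family with a SET-like domain of which many members act as transcription factors, held 5 of the 9 calls. The 9 tested unigenes held 2 higher and 3 lower calls, against 3.97% higher and 3.25% lower of all tested unigenes. The median log2 ratio was -0.09, and the range from -1.28 to 2.07 was the widest of any chromatin class. PR domain zinc finger protein 10 accounted for 4 of these 5 calls, in both directions. Unigene0002777 (912 bases) had 109 reads in the library labelled heat shock and 24 in the library labelled control, or 28.6 and 6.70 RPKM, a ratio of 4.27 (2.73 to 6.95). It had the largest ratio of the tested chromatin unigenes and stayed called with TMM factors; with the labels turned its ratio would be 0.234, and the largest would be the 2.84 of the second CSE4-like unigene (Unigene0028173).

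Of the 5 other tested unigenes of this description, 4 had an interval below 1. Unigene0002776 (1105 bases) had 97 reads in the library labelled heat shock and 188 in the library labelled control, 2.06-fold lower (1.60 to 2.66). Unigene0002775 and Unigene0027690 each had 15 and 35 reads, 2.48-fold lower (1.32 to 4.89). The longest one, Unigene0014121 (3826 bases), had 183 and 244 reads, 1.42-fold lower (1.17 to 1.73). Covered length moved with the reads: 96.2% of Unigene0002777 was covered in the library labelled heat shock and 69.3% in the library labelled control, and 48.7% of Unigene0027690 against 87.7%. Over all 8 unigenes the description summed to 448 reads in the library labelled heat shock and 555 in the library labelled control, a ratio of 0.759 (0.669 to 0.861). Whether they are pieces or forms of 1 gene or several genes is not given by the files.

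PR domain zinc finger protein 1, called Blimp-1 in mammals where it represses transcription in lymphocytes, had 747 reads in the library labelled heat shock and 506 in the library labelled control in its main unigene (Unigene0008253), a ratio of 1.39 (1.24 to 1.56). A fragment of 342 bases (Unigene0008254) was called higher with 19 and 6 reads, 2.98-fold (1.14 to 9.11), in the same direction. Its covered length did not move with the reads, at 45.9% in the library labelled heat shock and 48.5% in the library labelled control. PR domain zinc finger protein 16 (Unigene0014543) had 259 and 202 reads, for a ratio of 1.21 (0.9995 to 1.46).

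**Figure D3:**
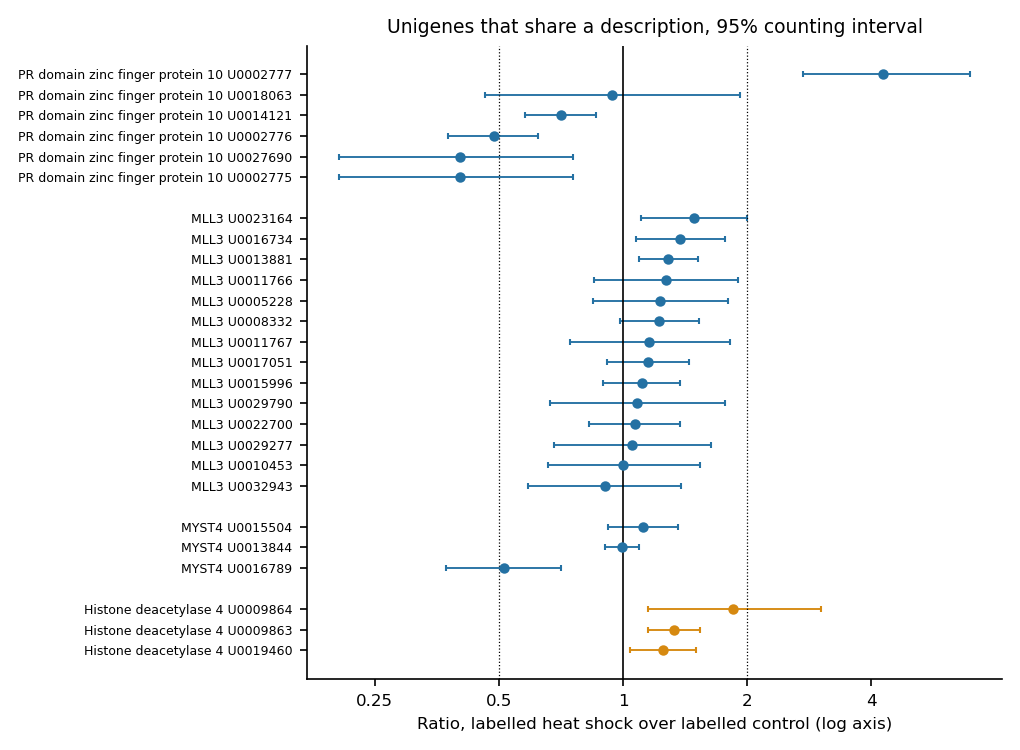
Ratio (labelled heat shock over labelled control, log axis) with its exact 95% counting interval for tested unigenes that share a description; dotted lines mark 2-fold. The 14 MLL3 and 3 histone deacetylase 4 unigenes lie close together, while PR domain zinc finger protein 10 runs from 0.403 to 4.27 and 1 of 3 MYST4 unigenes stands apart at 0.515.

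Histone acetyltransferases had 0 calls among 9 tested unigenes, a median log2 ratio of -0.01, and summed to 1927 reads in the library labelled heat shock and 1755 in the library labelled control, a ratio of 1.03 (0.968 to 1.10). KAT2B, a coactivator also called PCAF (Unigene0015566), had 250 and 164 reads, for a ratio of 1.43 (1.17 to 1.76). MYST2, which acetylates histones at replication origins in mammals, had 157 and 107 reads in its main unigene (Unigene0004645), a ratio of 1.38 (1.07 to 1.78). The type B enzyme, which acetylates newly made histones before they enter chromatin (Unigene0015925), had 95 and 61 reads, for a ratio of 1.46 (1.05 to 2.06). KAT5, the Tip60 enzyme of DNA repair and transcription (Unigene0016522), had 134 and 149 reads, for a ratio of 0.846 (0.665 to 1.08).

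MYST4 had the most reads of the acetyltransferases. Its main unigene (Unigene0013844, 4523 bases) had 892 reads in the library labelled heat shock and 843 in the library labelled control, a ratio of 0.995 (0.905 to 1.09). Another one (Unigene0016789, 1991 bases) had 63 and 115 reads, 1.94-fold lower (1.42 to 2.68), and passed the 2-fold rule with TMM factors. The third (Unigene0015504) had 233 and 196 reads, for a ratio of 1.12 (0.921 to 1.36). As in the H1-delta and E(z) descriptions, the unigene with most reads stayed level with library totals while a lesser one differed. With TMM factors the interval of the main MYST4 unigene lay below 1, at 0.888 (0.807 to 0.977). So did that of the main H1-delta unigene (Unigene0022867), at 0.868 (0.786 to 0.958).

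Erasers had the largest summed ratio of the chromatin groups under the labels as given; with the labels turned, theirs would be the smallest (0.802) and that of remodellers the largest (0.986). Their 25 unigenes held 2376 reads in the heat-shock-labelled library (exact Poisson 95% interval 2281 to 2474) and 1792 in the library labelled control (1710 to 1877), a ratio of 1.25 (1.17 to 1.33). Their interval lay above 1 for 10 of 22 tested unigenes, or 45.5%, against 23.0% of all unigenes, and below 1 for 0. The group also counts 4 unigenes described as subunits or components of deacetylase complexes. These held 500 and 397 of the reads and 2 of the 10 intervals above 1. Lists of other genes moved alike: the summed ratio was 1.25 for genes of S phase, 1.21 for cilia and 1.20 for muscle, so the shift is not shown to be particular to erasers. With TMM factors 2 of 22, or 9.09%, lay above 1, against 12.3% of all unigenes, while the summed ratio was 1.11. The sum thus stood above 1 under both scalings, while the share of single unigenes above 1 depended on the scaling, and 1 eraser was called.

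Deacetylases remove acetyl groups from histones and other proteins. Histone deacetylase 4, of a class that shuttles between nucleus and cytoplasm in mammals, had 3 unigenes with that exact description, with all 3 intervals above 1; that of the histone deacetylase 4-like unigene (Unigene0005950, 35 and 28 reads) included 1, at 1.18 (0.695 to 2.01). The main one (Unigene0009863) had 448 reads in the library labelled heat shock and 317 in the library labelled control, a ratio of 1.33 (1.15 to 1.54), the next (Unigene0019460) 271 and 204 reads, for a ratio of 1.25 (1.04 to 1.51), and the shortest (Unigene0009864) 55 and 28 reads, for a ratio of 1.85 (1.15 to 3.03). With TMM factors the interval of Unigene0019460 included 1 (ratio 1.11, 0.926 to 1.34). The sum of the 3 had a ratio of 1.33 (1.19 to 1.48). Histone deacetylase 11 (Unigene0018187) had 204 and 142 reads, for a ratio of 1.35 (1.09 to 1.69). Unigenes of histone deacetylases 6 and 10, of which the first acts on tubulin in mammals, summed to 124 and 73 reads, for a ratio of 1.60 (1.19 to 2.16).

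The deacetylases of class I, the nuclear enzymes of corepressor complexes, had ratios on both sides of 1. Histone deacetylase 2 (Unigene0032143) had 82 reads in the library labelled heat shock and 89 in the library labelled control, a ratio of 0.867 (0.634 to 1.18), and histone deacetylase 3 (Unigene0016284) had 78 and 88 reads, for a ratio of 0.834 (0.607 to 1.14). Histone deacetylase Rpd3, named after the yeast enzyme, had a short unigene (Unigene0031180, 269 bases) with 37 and 18 reads, for a ratio of 1.93 (1.07 to 3.61). Summed over these, histone deacetylase 8 and the unigene described as histone deacetylase 2-like (Unigene0001601, 37 and 42 reads), class I had 239 and 246 reads, for a ratio of 0.914 (0.762 to 1.10). Among the subunits of the Sin3 corepressor complex, SAP30L (Unigene0021315) had 174 and 116 reads, for a ratio of 1.41 (1.11 to 1.80), SDS3 (Unigene0005760) 158 and 109 reads, for a ratio of 1.36 (1.06 to 1.76), and SAP18 (Unigene0024756) 100 and 118 reads, for a ratio of 0.797 (0.605 to 1.05).

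All 5 tested unigenes of histone demethylases had ratios above 1, as had 66.1% of all tested unigenes, and with TMM factors 0 of the 5 intervals excluded 1. Lysine-specific histone demethylase 1, an amine oxidase (Unigene0014948), had 290 reads in the library labelled heat shock and 223 in the library labelled control, a ratio of 1.22 (1.02 to 1.46). Its relative 1B (Unigene0020288) was the called eraser with 32 and 14 reads, 2.15-fold higher (1.12 to 4.36), but not with TMM factors, and its second unigene (Unigene0024890) had 7 reads in each library. The JmjC enzyme 1D (Unigene0018140), which belongs to the iron-dependent demethylases, had 99 and 64 reads, for a ratio of 1.46 (1.05 to 2.02), and the enzyme 2C (Unigene0003133) had 42 and 32 reads, for a ratio of 1.23 (0.761 to 2.02). The class summed to 500 and 357 reads, for a ratio of 1.32 (1.15 to 1.51). The 12 unigenes named lysine-specific demethylase, which lie outside the words of the rule, held far more reads, 4749 and 4151, for a ratio of 1.08 (1.03 to 1.12). Among these, lysine-specific demethylase 3B (Unigene0013644) had a ratio of 1.28, 5A (Unigene0013562) 0.983, 4A (Unigene0013571) 0.974, and the 6A unigenes (Unigene0005155 and Unigene0014442) 0.932 and 0.862.

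**Figure D4:**
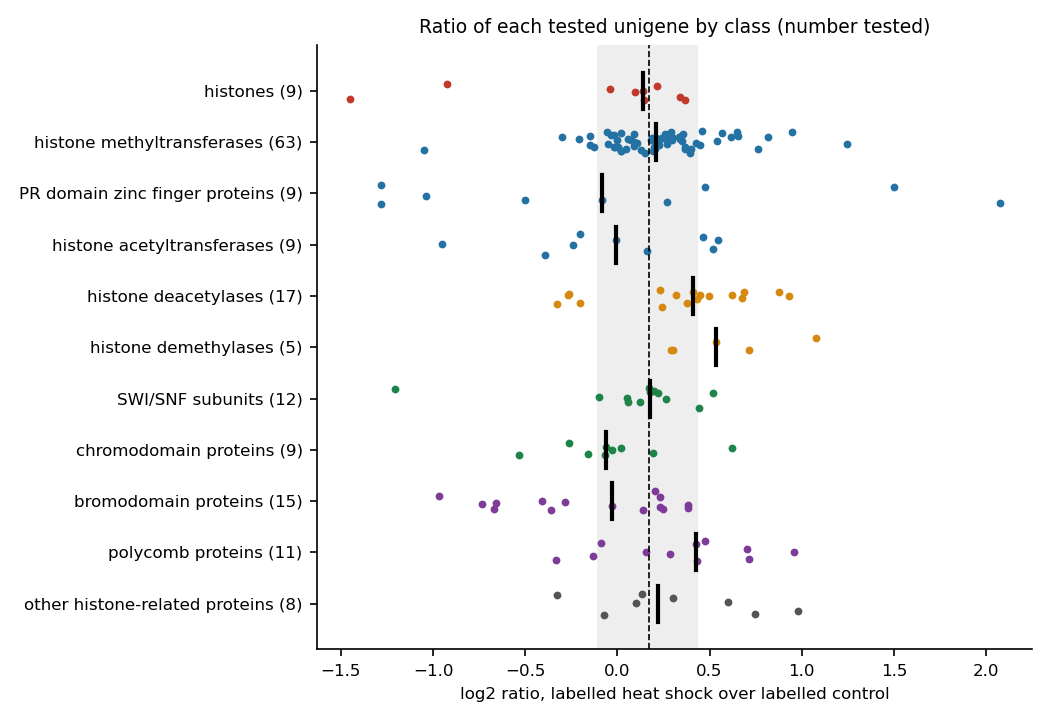
Log2 ratio (labelled heat shock over labelled control, library totals) of the 167 tested chromatin unigenes by class, with the number tested; black bars are class medians, the dashed line the median of all tested unigenes (0.17) and the grey band their quartiles. Deacetylases, demethylases and polycomb proteins have medians of 0.41, 0.54 and 0.43, and PR domain zinc finger proteins spread the farthest.

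Remodellers were abundant and, with library totals, near level. Their 22 unigenes held 9976 reads in the heat-shock-labelled library (9781 to 10174) and 9248 in the library labelled control (9060 to 9438), a ratio of 1.01 (0.986 to 1.04), and 0 of 21 tested were called in either direction. Their median log2 ratio of 0.06 lay below the 0.17 of all unigenes. With TMM factors 0 of 21 intervals lay above 1, against 12.3% of all unigenes. Below 1 lay 7, or 33.3%, against 14.9% of all. The SWI/SNF class had a median log2 ratio of 0.17 and summed to a ratio of 1.13 (1.07 to 1.18). SMARCC2, a core subunit (Unigene0014355), had 1155 and 996 reads, for a ratio of 1.09 (1.001 to 1.19), and SMARCB1, another core subunit, here the subfamily B member 1 (Unigene0019505), had 166 and 109 reads, for a ratio of 1.43 (1.12 to 1.84). Subfamily A member 5, the ATPase of ISWI complexes, had 744 and 609 reads in its main unigene (Unigene0014267), a ratio of 1.15 (1.03 to 1.28). Its unigene of the highest level (Unigene0011518) had 244 and 197 reads, for a ratio of 1.17 (0.962 to 1.41), and subfamily E member 1, an accessory subunit (Unigene0005099), had 143 and 99 reads, for a ratio of 1.36 (1.04 to 1.77).

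Chromodomain helicases, ATPases that read methylated histones, had lower ratios than the SWI/SNF subunits, a difference that was not tested. Their median log2 ratio was -0.06, and they summed to 6360 reads in the library labelled heat shock and 6228 in the library labelled control, a ratio of 0.961 (0.927 to 0.995). Mi-2, the ATPase of the NuRD deacetylase complex, had 1835 and 1804 reads in its long unigene (Unigene0007859), a ratio of 0.957 (0.896 to 1.02), and 661 and 694 in the other (Unigene0007858), a ratio of 0.896 (0.804 to 0.998). Chromodomain-helicase-DNA-binding protein 1 (Unigene0007864) had 1534 and 1473 reads, for a ratio of 0.980 (0.911 to 1.05), and protein 9 (Unigene0007808, 8454 bases) 1277 and 1258 reads, for a ratio of 0.955 (0.883 to 1.03). A shorter unigene of protein 1 (Unigene0007863) had 69 and 94 reads, for a ratio of 0.690 (0.499 to 0.952). With TMM factors the interval of 6 of the 9 unigenes in this class, which also holds a chromodomain Y-like protein that is no helicase, lay below 1, against 14.9% of all unigenes.

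The groups were set against each other by the ratio of their summed ratios, which does not depend on scaling. Of the 6 pairs among histones, writers, erasers and remodellers, erasers over remodellers gave the largest value, 1.23 (95% counting interval 1.15 to 1.32). Erasers over histones gave 1.17 (1.08 to 1.25), erasers over writers 1.14 (1.06 to 1.21), and writers over remodellers 1.08 (1.04 to 1.12). Histones over remodellers gave 1.06 (1.01 to 1.11), but 1.02 (0.958 to 1.09) without the most abundant histone unigene. Writers over histones gave 1.03 (0.981 to 1.07). Without the most abundant eraser, erasers over remodellers gave 1.21 (1.13 to 1.30). These intervals hold counting error only, and how far such libraries would differ without a treatment was not measured. The groups hold only unigenes caught by the words of the rule, and their order applies to these. Outside those words and with library totals, 13 unigenes of sirtuins, which are deacetylases, had a summed ratio of 0.784 (0.723 to 0.849). Of the 1120 and 1344 sirtuin reads, 2 sirtuin-6 unigenes held 188 and 471 (Unigene0010109) and 77 and 161 (Unigene0025770). The sum leans on these 2 and does not describe sirtuins in general. Lysine-specific demethylases outside those words had a summed ratio of 1.08 (1.03 to 1.12), and other remodellers 0.919 (0.892 to 0.946). The other remodellers went both ways, with 8 of 25 tested intervals above 1 and 5 below.

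**Figure D5:**
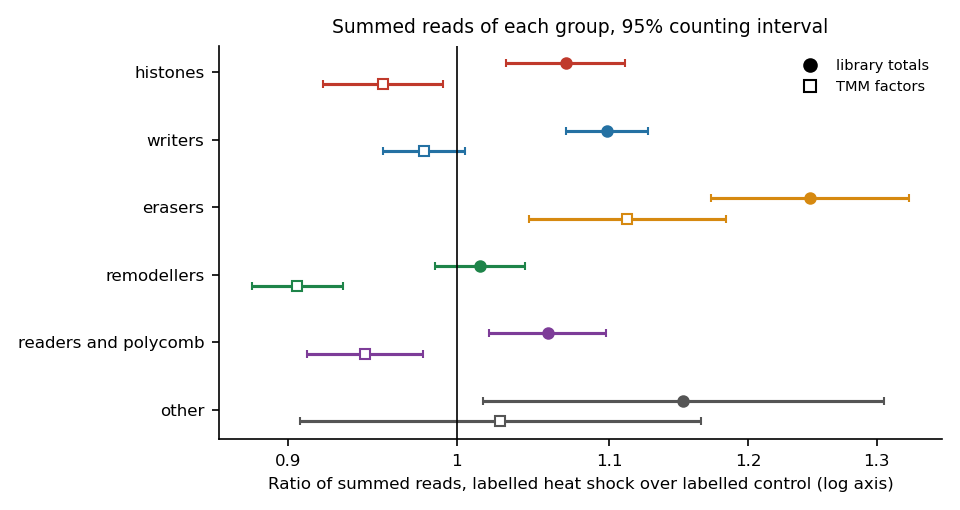
Ratio of summed reads (labelled heat shock over labelled control, log axis) of each chromatin group with its exact 95% counting interval, scaled to library totals (filled circles) and with TMM factors (open squares). Under the labels as given erasers are highest at 1.25 and 1.11 and remodellers lowest at 1.01 and 0.905 (with the labels turned, 0.802 and 0.986 with library totals); with TMM factors erasers and the other histone-related proteins are the groups above 1.

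Bromodomain proteins went both ways with no call among 15 tested unigenes. Bromodomain testis-specific protein, of the BET family that recruits transcription elongation factors, had 1359 reads in the library labelled heat shock and 979 in the library labelled control in its main unigene (Unigene0004536), a ratio of 1.31 (1.20 to 1.42), and 692 and 566 in the other (Unigene0004537), a ratio of 1.15 (1.03 to 1.29). Bromodomain adjacent to zinc finger domain protein 2B had a ratio below 1 in all 4 unigenes, with 621 and 751 reads in the main one (Unigene0030886), a ratio of 0.778 (0.698 to 0.866). Bromodomain and WD repeat-containing protein 1 (Unigene0015723) had 86 and 129 reads, for a ratio of 0.627 (0.472 to 0.830), and its 4 unigenes summed to 0.667 (0.546 to 0.814). The unigene with the highest level of the class (Unigene0011377, 651 bases) had 386 and 394 RPKM in the libraries labelled heat shock and control, a ratio of 0.981 (0.899 to 1.07). It was matched to a bromodomain-containing protein of a protozoan, so its identity rests on a distant match.

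Polycomb proteins had 0 calls among 11 tested unigenes, a median log2 ratio of 0.43, and a summed ratio of 1.14 (1.05 to 1.24). The RING finger protein BMI-1, a subunit of the PRC1 complex, summed over 5 unigenes to 308 reads in the library labelled heat shock and 208 in the library labelled control, a ratio of 1.39 (1.16 to 1.67), led by BMI-1-A (Unigene0010566) with 113 and 65 reads. Asx, a chromatin regulator first described in flies (Unigene0009108), had 290 and 196 reads, for a ratio of 1.39 (1.16 to 1.68). Suz12, a PRC2 subunit (Unigene0006920), had 84 and 71 reads, for a ratio of 1.11 (0.802 to 1.55). Enhancer of polycomb-like protein 1, which belongs to an acetyltransferase complex (Unigene0013924), had 409 and 421 reads, for a ratio of 0.914 (0.796 to 1.05).

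Of the remaining histone-related proteins, histone H4 transcription factor, which drives histone H4 genes in mammals, had 3 tested unigenes, all with ratios above 1.5. Among them Unigene0012254 was called with 32 reads in the library labelled heat shock and 15 in the library labelled control, 2.01-fold higher (1.06 to 3.99), but not with TMM factors. The 4 unigenes summed to 121 and 69 reads, for a ratio of 1.65 (1.22 to 2.25), and the one with most reads (Unigene0009816) had 68 and 42. The histone-binding proteins RBBP4 and Caf1, subunits of assembly and deacetylase complexes, summed to 324 and 295 reads over Unigene0004440, Unigene0004441 and Unigene0004442, a ratio of 1.03 (0.880 to 1.21). The chaperone asf1-B, which hands H3 and H4 to assembly factors (Unigene0017467), had 71 and 54 reads, for a ratio of 1.24 (0.856 to 1.80).

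Chromatin genes outside the words of the rule were read as well. Among 25 tested unigenes of other acetyl writers and erasers, 0 were called higher and 2 lower in the library labelled heat shock, against 3.97% higher and 3.25% lower of all tested unigenes, which is also the background for the lists that follow. Both were sirtuin-6, an NAD-dependent deacetylase: Unigene0010109 had 188 reads in the library labelled heat shock and 471 in the library labelled control, 2.66-fold lower (2.24 to 3.17), and Unigene0025770 had 77 and 161, 2.22-fold lower (1.68 to 2.96). Among 25 tested unigenes of other remodellers, 0 were called higher and 2 lower, both helicases shared by the INO80 and Tip60 complexes. RuvB-like 1-like (Unigene0018093) had 274 and 719 reads, 2.79-fold lower (2.42 to 3.22), and RuvB-like 2 (Unigene0018756) 405 and 823 reads, 2.16-fold lower (1.92 to 2.44). Of the 25 intervals 8 lay above 1 and 5 below. Transcription activator BRG1-like (Unigene0013656, 1337 and 933 reads) and helicase domino-like (Unigene0007816, 1002 and 700 reads) each had a ratio of 1.35. The AT-rich interactive domain-containing protein 4B unigenes (Unigene0006417 and Unigene0006418) had ratios of 0.676 and 0.589.

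Of 44 other methyl writers and erasers, 1 was called higher, Protein Jumonji (Unigene0005476, 72 and 31 reads), and 1 lower, JmjC domain-containing protein 7 (Unigene0017731, 36 and 75 reads). Of 38 unigenes caught by words for nucleosome assembly and heterochromatin, 1 was called higher, Chromobox-like protein 8 (Unigene0019092, 148 and 65 reads). The words also caught unigenes whose place in this list is uncertain, such as chromatin modifying protein 2A-like (Unigene0004354). High mobility group proteins, which bend DNA, came close: High mobility group protein B3 (Unigene0017865) had 1661 reads in the library labelled heat shock and 813 in the library labelled control, a ratio of 1.92 (1.77 to 2.09), and the HMGB-like protein (Unigene0019932) 2419 and 1242, a ratio of 1.83 (1.71 to 1.96). Of 19 DNA methylation unigenes 1 was called higher, the putative methylcytosine dioxygenase TET2 (Unigene0011225, 23 and 8 reads). Genes of S phase, when histones are made, had 0 of 25 called higher and 1 lower, the licensing factor MCM9 (Unigene0018031, 18 and 39 reads), with a median log2 ratio of 0.41.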

How the data were processed

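Gill RNA was sequenced in 2 libraries, 1 per group; pooling is stated for the library labelled heat shock. The submitters' processing notes name CASAVA 1.4 and cutadapt 1.8.1, without an aligner or assembler. The authors deposited, per the file headers, counts of uniquely mapped reads per unigene, the length in bases, the coverage as a percent of that length, and RPKM. The counts summed to the header totals. The deposited RPKM followed from count, length and total, and was used to compare levels between genes. The deposited coverage (percent) was used as a description.

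Reads near-identical between copies are absent from unique counts, so families may be undercounted. A unigene missing from a file was set to 0 reads; 7 chromatin unigenes were listed in 1 file. Ratios have exact conditional binomial (Clopper-Pearson) 95% intervals (Python 3.11.15, scipy 1.17.1). Log2 ratios use a prior count of 0.5. No test across samples was run; edgeR 4.0.16 gave TMM factors. Ratios of group ratios use a log-normal interval for counts. PCR copies are not independent molecules.

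The members, lists and rules were chosen with earlier results of these data known. Named unigenes are every called member, the 3 with the highest RPKM in each class, and up to 2 in each direction per class with at least 100 reads whose interval excluded 1. Others, including those outside the rule and the sums over families, were chosen after their values were seen. Histone H4 transcription factor and the JmjC demethylation proteins were moved to their class by reading descriptions. Some false matches were removed from related lists in the same way, and others may remain.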

Additional observations from a re-analysis of the deposited data

How the results depend on the processing

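No paired analysis was possible because each group has 1 library. With 1 library per group no replicate could be left out. Of the 5 higher and 4 lower calls, TMM factors gave 3 and 8, median-of-ratios size factors 3 and 8, and totals without chaperone unigenes (chosen after seeing the data) 3 and 8. A minimum of 100 reads gave 1 and 1, an interval at a stricter confidence level 1 and 1, a ratio of at least 1.5 gave 11 and 8, a ratio of at least 4 gave 1 and 0, and unigenes summed by description 0 and 0. The median log2 ratio of 0.20 became 0.036 with TMM factors and 0.033 with median-of-ratios factors. For TMM, median-of-ratios and totals without chaperones in turn, summed ratios were 1.11, 1.11 and 1.16 for erasers, 0.955, 0.953 and 0.993 for histones, 0.944, 0.942 and 0.982 for readers and polycomb, 0.905, 0.903 and 0.941 for remodellers, and 0.980, 0.978 and 1.02 for writers. Readers and polycomb came to 1.005 without the most abundant unigene. These scalings shift log2 ratios by -0.16, -0.17 and -0.11. None of the members was described as SETMAR, so that alternative changed nothing. Of 53 named unigenes, 6 had a ratio on the other side of 1 with TMM or median-of-ratios factors, 0 of them called; for 2 of the 6 the interval had excluded 1, the main CSE4-like histone (1.10, with TMM 0.981) and SMARCC2 (1.09, with TMM 0.973). Calls of named unigenes were lost for 7 at the stricter interval, 8 at a ratio of 4 and 2 with TMM factors, which added 2. The cause of each move was not tested. Differences between the oysters sampled cannot be told apart from the treatment.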
